A study of Mus musculus with 4 samples.

Results

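The genes described here are 6 matrix metalloproteinases (Mmp2, Mmp9, Mmp11, Mmp14, Mmp15 and Mmp16), 3 tissue inhibitors of metalloproteinases (Timp1, Timp2 and Timp3) and Btbd7, a gene of cleft formation. They were taken by symbol from a table of 22036 Ensembl genes and 2735 assembled loci, and all 10 were found, each as 1 row, with a value above 0 in every sample. Total RNA was sequenced from 2 samples of mES-derived induced embryonic salivary glands on day 10, called PSC-derived SG placodes, and from 2 samples of mouse E12.5 submandibular glands, called SMGs. Samples are named by their replicate number as placodes 1 and 2 and SMGs 1 and 2. The placodes all came from 1 line of mouse embryonic stem cells. They were seeded at 3000 cells per well and kept with 2% growth factor reduced Matrigel from day 1, so basement membrane proteins were also supplied from outside. On day 3 the medium received BMP4 (2 ng/ml), on day 4 bFGF (25 ng/ml) together with RA (1 μM), and from day 6 onwards FGF10 (200 ng/ml). The strain of the embryos, the dissection of the SMGs and the number of embryos or wells per sample are not given in the sources used here. Nothing states that the samples of a group were separate cultures or litters. The p-values therefore set each difference against the spread between these samples alone, which may be technical.

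Matrix metalloproteinases are zinc enzymes that are made as inactive proenzymes and cleave collagens, laminins, fibronectin and other matrix proteins. Mmp14, Mmp15 and Mmp16 are held in the cell membrane, whereas Mmp2, Mmp9 and Mmp11 are secreted. Timp proteins bind the active site of these enzymes and block it, and at the cell surface Timp2 also links proMmp2 to Mmp14 for its activation. In the developing SMG, clefts divide the epithelial bud while the basement membrane around it is loosened and rebuilt. There, Mmp15 releases fragments of collagen IV that promote bud growth, and Btbd7 is induced by fibronectin in cells at the cleft, where it raises Snai2 and lowers E-cadherin.

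Expression was given as FPKM, the fragments of a gene divided by its transcript length and by the mapped total of the sample, so that levels of different genes can be compared per length. Values were compared between the groups with limma on log2(FPKM + 1) over the 13193 features with a mean FPKM of at least 1, and a difference was called at a Benjamini-Hochberg adjusted p below 0.05. Differences are placodes minus SMGs on that scale, which understates the change of genes with low values. The FPKM files give no read counts and the depth is unknown, so no detection limit is given.

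Markers of several cell types differed between the groups. All 8 neural markers (among them Sox1, Pax6 and Tubb3) were higher in both placode samples, with a summed FPKM of 963 to 998 against 102 to 111 in the SMG samples. All 10 mesenchyme markers were lower in both placode samples, with sums of 221 to 224 against 2104 to 2149.8, and none was at 0. The 8 endothelium markers summed to 11.9 to 12.6 against 145 to 152, the 8 macrophage and leukocyte markers to 1.82 to 2.22 against 19.8 to 22.7, and the 7 erythroid markers to at most 0.255 against at least 2932. Among 10 epithelium markers 7 were lower in both placode samples, Krt5, Krt14 and Krt15 were listed at 0 there, and the sums were 73.4 to 80.2 against 604 to 635. The simple-epithelium keratin Krt19 was higher in the placodes (log2 fold change 0.85, adjusted p = 0.0036 by limma), and Krt8 and Krt18 were not past the threshold (log2 fold changes 0.13 and 0.34). In bulk RNA, fewer cells of a type and less RNA per cell cannot be told apart, and the part of these shifts in the differences below was not tested. Mitochondrial transcripts took 5.88 to 5.93% of all FPKM in placodes and 8.07 to 10.7% in SMGs.

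All 10 genes were past the threshold, 9 lower and 1 higher in the placodes. Over all tested features 76.2% were past it, 40.4% lower and 35.7% higher. At least 2-fold differences (1 or more on the log2 scale in either direction) were found for 7 genes, all of them lower, where 15.2% of all tested features were called lower at this fold and 29.4% in either direction. With a pseudocount of 0.1 or 0.001 the number was 8, as Mmp9 then had a log2 fold change of -1.08 or -1.12. The median log2 fold change of the 10 genes was -1.72, ranging from -2.90 to 0.49, beside -0.05 over all tested features. The placode and SMG values did not overlap for any of the 10 genes, as for 88.4% of all tested features.

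**Figure D1:**
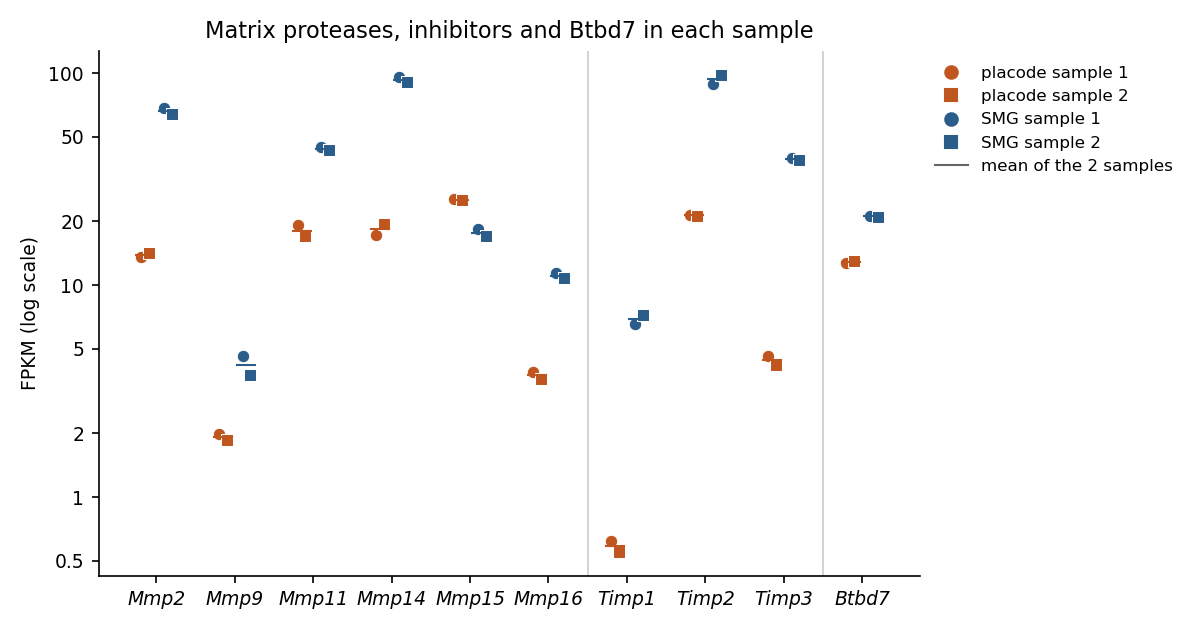
FPKM of the 10 genes on a log scale in each of the 2 placode samples (orange) and 2 SMG samples (blue), with the mean of the 2 samples as a short line. Mmp15 is the gene with placode points above the SMG points, and Timp1 and Timp3 show the widest gaps.

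The promoter sequences of 3 of these genes are printed because Mmp14 and Mmp15, closely related membrane-type enzymes, differed in opposite directions and Timp3 had the lowest log2 fold change. RefSeq promoters of GRCm38.p6 were found for 7 of the 10 genes (Mmp11, Mmp14, Mmp15, Timp1, Timp2, Timp3 and Btbd7), and not for Mmp2, Mmp9 and Mmp16. Each line gives the 250 bases before the annotated start, 5′ to 3′ on the plus strand, with matches to the GC box GGGCGG or its reverse complement CCGCCC in capitals. The windows lie at chr14:54431348-54431597 for Mmp14, chr8:95352046-95352295 for Mmp15 and chr10:86300162-86300411 for Timp3, and the starts are those of RefSeq. The gene starts given below are from GENCODE M21 and differ. The windows of Mmp15 and Timp3 run past their GENCODE starts (95352268 and 86300372), and that of Mmp14 ends before its own (54431612).
Mmp14: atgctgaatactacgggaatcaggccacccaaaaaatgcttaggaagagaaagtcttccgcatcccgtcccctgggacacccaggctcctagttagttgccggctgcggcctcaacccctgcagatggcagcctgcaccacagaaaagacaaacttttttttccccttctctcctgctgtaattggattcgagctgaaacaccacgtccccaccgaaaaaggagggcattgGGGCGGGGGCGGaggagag
Mmp15: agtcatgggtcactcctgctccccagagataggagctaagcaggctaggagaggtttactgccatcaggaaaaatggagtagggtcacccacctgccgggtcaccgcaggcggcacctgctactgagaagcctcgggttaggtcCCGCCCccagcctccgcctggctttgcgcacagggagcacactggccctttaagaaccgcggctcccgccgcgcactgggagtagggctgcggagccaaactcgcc
Timp3: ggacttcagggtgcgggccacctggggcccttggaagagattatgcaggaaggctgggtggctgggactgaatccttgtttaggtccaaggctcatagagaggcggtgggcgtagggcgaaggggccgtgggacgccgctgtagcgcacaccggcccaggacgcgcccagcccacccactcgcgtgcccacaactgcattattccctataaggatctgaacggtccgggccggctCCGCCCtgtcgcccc

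The GC box lay close to the RefSeq start in Mmp14 (first bases at -19 and -13, side by side) and Timp3 (-15), and farther away in Mmp15 (-106). In the full window of 250 bases before to 50 after the start, all 7 promoters held it on either strand, beside 35.7% of all 32851 promoters of the table and 63.7% of the 12777 promoters of tested genes. The AP-1 motif TGANTCA, which is its own reverse complement, and the TATA box TATAAA or TTTATA were in 0 of the 7 windows. Of all promoters 7.81% held the AP-1 letters and 13.6% the TATA letters, and of those of tested genes 4.45% and 6.81%. GC content ranged from 55.0% in Timp1 to 73.7% in Btbd7, with a median of 61.3% over the promoters of tested genes. Each of the 6 promoters other than that of Mmp15 held a GC box with its first base between -53 and -8. This range was read from these promoters themselves, and the share of other promoters with a GC box in it was not taken. Mmp24, which is not among the genes described here, was higher in the placodes (log2 fold change 3.55). Its promoter held GC boxes at -213, -63 and -50, the last of them inside this range. A link between the position of a GC box and the direction of the differences was not tested. These matches describe the letters of these windows.

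Of the secreted enzymes, Mmp2 (gelatinase A, which cleaves collagen IV and denatured collagen) fell most. Its FPKM was 13.6 and 14.2 in placodes 1 and 2, against 68.3 and 64.2 in SMGs 1 and 2. Both placode samples lay far below both SMG samples, and the SMG mean was 4.76 times the placode mean. The log2 fold change was -2.17 (standard error 0.06, adjusted p = 6.73e-07 by limma). Mmp2 lies on chromosome 8 of GRCm38 from 92827291 to 92853420 on the plus strand and shares no exon with another annotated gene.

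Mmp11 (stromelysin 3, which furin activates inside the cell before secretion) had an FPKM of 19.2 and 17.0 in placodes 1 and 2, against 44.9 and 43.2 in SMGs 1 and 2. The groups were clearly apart, and the log2 fold change was -1.24 (standard error 0.07, adjusted p = 1.32e-05 by limma). Mmp11 (chromosome 10, 75923222 to 75936496, minus strand) shares 155 exon bases with Chchd10 on the opposite strand. Chchd10 had an FPKM of 20.4 and 15.0 in placodes 1 and 2 against 5.99 and 6.80. Whether the libraries kept strand is not given in the sources used here, so reads of the shared bases cannot be assigned with certainty.

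Mmp9 (gelatinase B, abundant in cells of the macrophage and neutrophil lines) was the least expressed protease in both groups. Its FPKM was 1.98 and 1.86 in placodes 1 and 2, against 4.63 and 3.79 in SMGs 1 and 2. The SMG samples differed from each other more, relative to their mean, than for the other proteases, yet both placode samples were lower. The placode mean was 1.92 ± 0.0819 FPKM (SD, n = 2) and the SMG mean 4.21 ± 0.594 FPKM (SD, n = 2). The log2 fold change was -0.83 (standard error 0.12, adjusted p = 8.92e-04 by limma), and the ratio of FPKM means was 2.19 (SMGs over placodes). Among the macrophage and leukocyte markers, all 8 were also lower in both placode samples, with Adgre1, Cx3cr1 and Tyrobp listed at 0 there. The 5 neutrophil markers summed to 0.0466 and 0 FPKM in placodes 1 and 2, against 1.11 and 1.09 in SMGs 1 and 2. Of these, Mpo and S100a9 were lower in the placodes, where neither had a value above 0. The groups overlapped for Elane, Ly6g and S100a8, with Elane and S100a8 listed at 0 in both SMG samples. The part of these cells in the Mmp9 difference was not tested.

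Of the membrane-type enzymes, Mmp14 (MT1-MMP, which cleaves interstitial collagen and activates proMmp2) was the most expressed protease in the SMGs. Its FPKM was 17.2 and 19.5 in placodes 1 and 2, against 95.8 and 90.9 in SMGs 1 and 2. In the SMG samples it ranked at the 95.9th percentile of all tested features, and in the placode samples at the 67.5th. The log2 fold change was -2.29 (standard error 0.07, adjusted p = 1.17e-06 by limma), and the ratio of FPKM means was 5.10 (SMGs over placodes). Mmp14 lies on chromosome 14 from 54431612 to 54445364 and overlaps no other annotated gene.

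Mmp15 (MT2-MMP) was the exception. Its FPKM was 25.4 and 25.2 in placodes 1 and 2, against 18.4 and 17.0 in SMGs 1 and 2. Both placode values were above both SMG values, and the placode samples differed by less than 1 FPKM. The rise was small, with a ratio of FPKM means of 1.43 (placodes over SMGs) while the log2 fold change was 0.49 (standard error 0.06, 95% interval 0.35 to 0.64, adjusted p = 4.49e-04 by limma), short of 2-fold. Mmp15 (chromosome 8, 95352268 to 95375080, plus strand) overlaps no other annotated gene. It was the most expressed of the 10 genes in the placodes and the 7th in the SMGs.

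Mmp16 (MT3-MMP) had an FPKM of 3.89 and 3.62 in placodes 1 and 2, against 11.4 and 10.8 in SMGs 1 and 2. Each placode value was well below each SMG value, and the log2 fold change was -1.35 (standard error 0.08, adjusted p = 2.05e-05 by limma). It is a long gene on chromosome 4 (17852893 to 18119145, plus strand), and a processed pseudogene inside it shares none of its exons.

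The 3 inhibitors were all at least 2-fold lower in the placodes. Timp2, the inhibitor that takes part in proMmp2 activation, was the most expressed, with an FPKM of 21.5 and 21.1 in placodes 1 and 2, against 89.0 and 98.4 in SMGs 1 and 2. The placode samples nearly coincided while the SMG mean was 4.40 times the placode mean. The log2 fold change was -2.08 (standard error 0.06, adjusted p = 9.97e-07 by limma). Timp2 lies on chromosome 11 from 118301069 to 118355740 on the minus strand, and Cep295nl within it shares none of its exons.

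Timp3 (the inhibitor that binds to the matrix and also blocks Adam17 and some Adamts enzymes) had an FPKM of 4.64 and 4.21 in placodes 1 and 2, against 39.6 and 39.1 in SMGs 1 and 2. Its log2 fold change of -2.90 was the lowest of the 10 genes (standard error 0.07, adjusted p = 4.98e-07 by limma), and the SMG mean was 8.91 times the placode mean. Timp3 (chromosome 10, 86300372 to 86349506, plus strand) lies within Syn3, a synapsin gene of neurons on the opposite strand, and shares 1733 exon bases with it. Syn3 had an FPKM of 2.81 and 4.11 in placodes 1 and 2, against 1.22 and 1.10 in SMGs 1 and 2, the opposite direction to Timp3. Without known strand, the share of Timp3 reads that belong to Syn3 cannot be stated.

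Timp1, a secreted inhibitor that responds to growth factors and cytokines, was the lowest of the 10 genes in the placodes. Its FPKM was 0.623 and 0.552 in placodes 1 and 2, against 6.58 and 7.21 in SMGs 1 and 2. The ratio of FPKM means was 11.7 (SMGs over placodes), the widest of the 10 genes, while the log2 fold change was -2.31 (standard error 0.11, adjusted p = 5.44e-06 by limma) because a pseudocount of 1 weighs on the placode values. With a pseudocount of 0.001 the log2 fold change was -3.55. Timp1 (chromosome X, 20870166 to 20874735, plus strand) lies within Syn1, another synapsin gene on the opposite strand, and shares no exon bases with it. Syn1 had an FPKM of 13.7 and 16.6 in placodes 1 and 2, against 0.805 and 0.575 in SMGs 1 and 2.

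Btbd7 was more alike in the groups than most of the other genes. Its FPKM was 12.8 and 13.0 in placodes 1 and 2, against 21.3 and 21.0 in SMGs 1 and 2, tight within each group and without overlap. The log2 fold change was -0.67 (standard error 0.06, 95% interval -0.81 to -0.53, adjusted p = 8.26e-05 by limma), so Btbd7 fell by less than 2-fold, with a ratio of FPKM means of 1.64 (SMGs over placodes). Btbd7 (chromosome 12, 102780797 to 102878471, minus strand) shares 69 of its 16456 exon bases with an antisense gene, Gm47167.

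**Figure D2:**
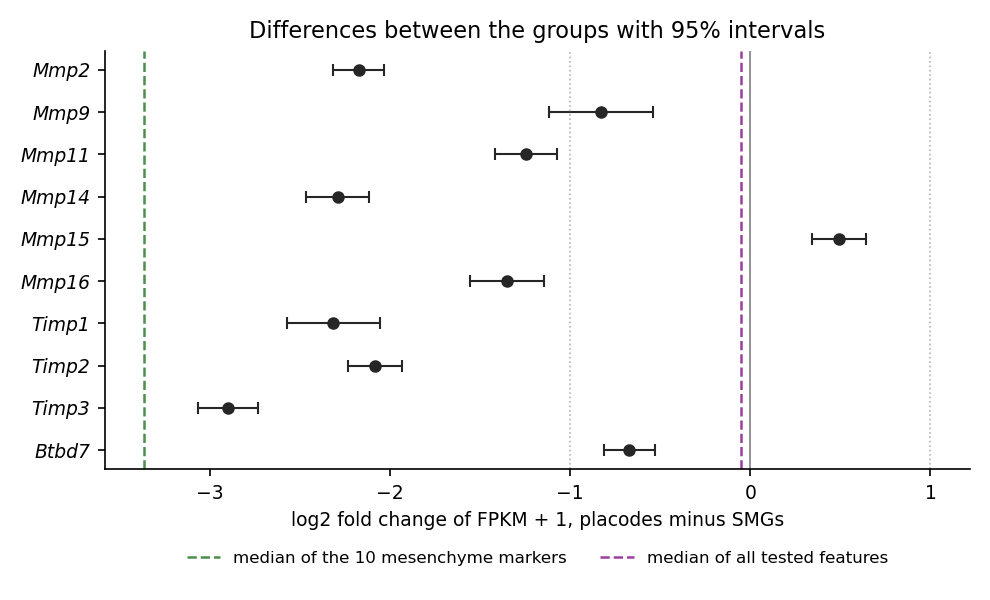
Log2 fold change of FPKM + 1 (placodes minus SMGs) of the 10 genes with 95% intervals from limma, dotted lines at 2-fold and dashed lines at the medians of all tested features (-0.05) and of the 10 mesenchyme markers (-3.36). Mmp15 at 0.49 is the point to the right of 0, Mmp9 and Btbd7 lie between 0 and -1, and the other 7 genes lie below -1.

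The order of levels differed between the groups. In the SMGs it ran from Timp2 and Mmp14, whose sample values overlapped, through Mmp2, Mmp11, Timp3, Btbd7, Mmp15, Mmp16 and Timp1 to Mmp9. In the placodes it ran from Mmp15 and Timp2 through Mmp14 and Mmp11, which overlapped, to Mmp2, Btbd7, Timp3, Mmp16, Mmp9 and Timp1. All other neighbours in either order had sample values that did not overlap. Btbd7 stood 6th in both, at the 55.9th percentile of tested features in the placodes and the 71.5th in the SMGs.

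The 6 proteases together summed to 81.2 and 81.4 FPKM in placodes 1 and 2, against 243 and 229.9 in SMGs 1 and 2. Mmp15 held 31.3 and 31.0% of this sum in the placode samples against 7.55 and 7.40% in SMGs 1 and 2, while Mmp14 held 21.1 and 23.9% against 39.4 and 39.5%. Mmp2 held 16.7 and 17.5% against 28.1 and 27.9%. The share of Mmp16 was 4.79 and 4.45% against 4.68 and 4.71%, with overlapping groups. Thus the placode sum was led by Mmp15 and the SMG sum by Mmp14 and Mmp2. The ratio of Mmp15 to Mmp14 was 1.48 and 1.30 in placodes 1 and 2, against 0.192 and 0.187 in SMGs 1 and 2.

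The 3 Timp genes summed to 26.8 and 25.9 in placodes 1 and 2, against 135 and 145 in SMGs 1 and 2. Timp2 held 80.3 and 81.6% of this sum in the placode samples and 65.8 and 68.0% in SMGs 1 and 2, and Timp3 17.3 and 16.2% against 29.3 and 27.0%. The summed proteases over the summed Timp genes gave 3.03 and 3.14 in placodes 1 and 2, against 1.80 and 1.59 in SMGs 1 and 2. The groups did not overlap in this ratio, and an exact two-sided permutation test gave p = 0.333, the smallest that 2 samples against 2 allow. Without Mmp15 the ratio was 2.08 and 2.17 against 1.66 and 1.47. These are ratios of RNA and not of protein or of enzyme activity.

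The proportions of Mmp14, Timp2 and Mmp2, the partners of proMmp2 activation, were also compared. Mmp14 over Timp2 was 0.798 and 0.921 in placodes 1 and 2, against 1.08 and 0.923 in SMGs 1 and 2, next to each other without overlapping (exact permutation p = 0.333). Mmp2 over Timp2 was 0.632 and 0.673 in placodes 1 and 2, and the SMG values of 0.768 and 0.652 lay on both sides of the higher of them (exact permutation p = 0.667). Mmp2 over Mmp14 was 0.792 and 0.731 against 0.713 and 0.706. The log2 fold changes of these 3 genes lay between -2.29 and -2.08.

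**Figure D3:**
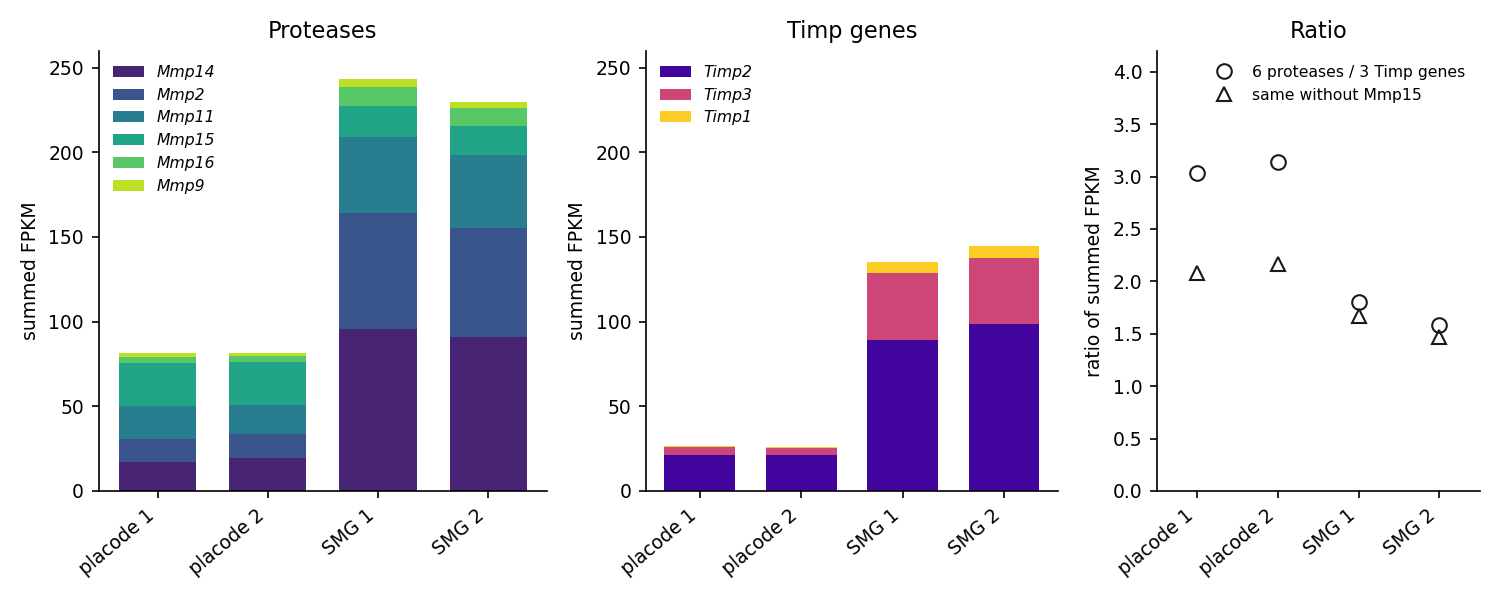
Summed FPKM of the 6 proteases (left) and the 3 Timp genes (middle) in each sample, split by gene, and the ratio of both sums with and without Mmp15 (right). Both sums are lower in the 2 placode samples, Mmp15 is the protease with a taller segment there, and the ratio is 3.03 and 3.14 in placodes 1 and 2, against 1.80 and 1.59 in SMGs 1 and 2.

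Of 17 other Mmp genes listed, 4 reached the mean FPKM of 1 needed for the test. Of these, 2 were higher and 2 lower in the placodes, beside 35.7% higher and 40.4% lower over all tested features. Mmp24 (MT5-MMP, a membrane-type enzyme known from neurons) had an FPKM of 13.9 and 14.2 in placodes 1 and 2, against 0.323 and 0.251 in SMGs 1 and 2 (log2 fold change 3.55, adjusted p = 7.46e-07 by limma). Mmp17 (MT4-MMP) was at 5.55 and 5.71 against 1.59 and 1.27 (log2 fold change 1.45, adjusted p = 4.95e-05 by limma). Mmp28 fell from 2.22 and 2.64 in SMGs 1 and 2 to 0.718 and 0.669, and Mmp23 from 1.63 and 1.62 to 0.946 and 0.773. Mmp1a, named after its values were seen, was not tested. Its FPKM was 0.673 in placode sample 1 and 1.07 in placode sample 2, and both SMG samples had a listed value of 0. Its RefSeq promoter holds TATAAA at -28 and TGAGTCA at -73. The 7 promoters described above lack the TATA and AP-1 letters, which were in 6.81% and 4.45% of the promoters of tested genes.

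Of 8 other inhibitors, 7 were tested and all 7 differed, 4 higher and 3 lower, with a median log2 fold change of 1.83. Among all tested features 76.2% differed at the same threshold, 35.7% higher and 40.4% lower. Reck, a membrane-bound inhibitor of Mmp2, Mmp9 and Mmp14, had an FPKM of 4.79 and 4.79 in placodes 1 and 2, against 32.7 and 33.1 in SMGs 1 and 2. Its log2 fold change of -2.55 (adjusted p = 5.24e-07 by limma) was in the range of the 3 Timp genes. The testican genes Spock1 and Spock2, which encode proteoglycans of the nervous system that act on proteases, rose by 2.60 and 4.04 on the log2 scale. They were listed with the inhibitors, and whether their products inhibit proteases was not tested. Spock2 was at 51.6 and 50.3 in placodes 1 and 2, against 2.45 and 1.89 in SMGs 1 and 2. Serpine2 and Spock3 fell by 0.86 and 0.75 on the log2 scale. Timp4 was at most 0.0492 in any sample and was not tested.

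Among 10 genes of protease activation, 7 were tested, 1 was higher and 6 were lower. The shares over all tested features were 35.7% higher and 40.4% lower. Furin, the convertase that activates Mmp11 and the membrane-type enzymes, had an FPKM of 9.46 and 7.86 in placodes 1 and 2, against 30.4 and 30.6 in SMGs 1 and 2, a log2 fold change of -1.71 (adjusted p = 9.72e-06 by limma). The related convertases Pcsk5 and Pcsk6 fell by 2.56 and 1.69 on the log2 scale. Bsg (basigin, which induces Mmp genes in neighbouring cells) was the one that rose, from 221 and 217 in SMGs 1 and 2 to 348 and 325.

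Adam and Adamts genes, relatives of the Mmp genes, differed mostly in one direction. Of 26 genes 23 were tested, of which 19 were lower, 2 were higher and 2 were not past the threshold. Their median log2 fold change was -1.74. The shares over all tested features were 40.4% lower and 35.7% higher. Adamts17, Adamts15 and Adam12 had the lowest values, between -4.35 and -3.42. Adam9 rose by 0.77 (adjusted p = 4.63e-05 by limma). Adam8 was at 1.44 and 1.66 in placodes 1 and 2, against 0.955 and 0.569 in SMGs 1 and 2 (adjusted p = 0.0149), a call that was lost without placode replicate 1 (adjusted p = 0.0628) or 2 (adjusted p = 0.10). Of 10 further matrix proteases, 7 were tested, 5 lower and 2 higher, to be read beside the same shares over all tested features. Ctsk (cathepsin K, a collagenase) was at 2.30 and 2.72 in placodes 1 and 2 against 68.7 and 69.5, and Fap and Bmp1 fell by 3.55 and 2.19 on the log2 scale. Ctsl and Tll2 were higher, with log2 fold changes of 0.47 and 1.45.

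Of 14 genes of cleft formation and its matrix, 10 were lower, 0 were higher and 4 were not past the threshold. Among all tested features 76.2% were past it, 40.4% lower and 35.7% higher. Fn1, whose product fibronectin gathers in clefts, was at 46.2 and 48.3 in placodes 1 and 2 against 182 and 185 (log2 fold change -1.94, adjusted p = 5.50e-07 by limma). Snai2 and Cdh1, the genes downstream of Btbd7 in cleft cells, had log2 fold changes of -3.18 and -3.68, both far below the -0.67 of Btbd7. Cdh1 is also 1 of the 10 epithelium markers, of which 7 were lower in both placode samples. Whether the values of Snai2 and Cdh1 are linked to Btbd7 was not tested. Col4a1, a chain of the collagen IV that Mmp15 cleaves, fell by 3.08. The 4 genes not past the threshold were Lama1, Rock2, Myh10 and Ptk2, which were named after their values were seen. Their log2 fold changes lay between -0.11 and 0.14. Rock2 (adjusted p = 0.121) was past the threshold, and higher, after scaling to an equal sum per sample (adjusted p = 0.0450) or by median ratios (adjusted p = 0.0428), and Myh10 (adjusted p = 0.0680), lower, after quantile normalization (adjusted p = 0.00998).

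**Figure D4:**
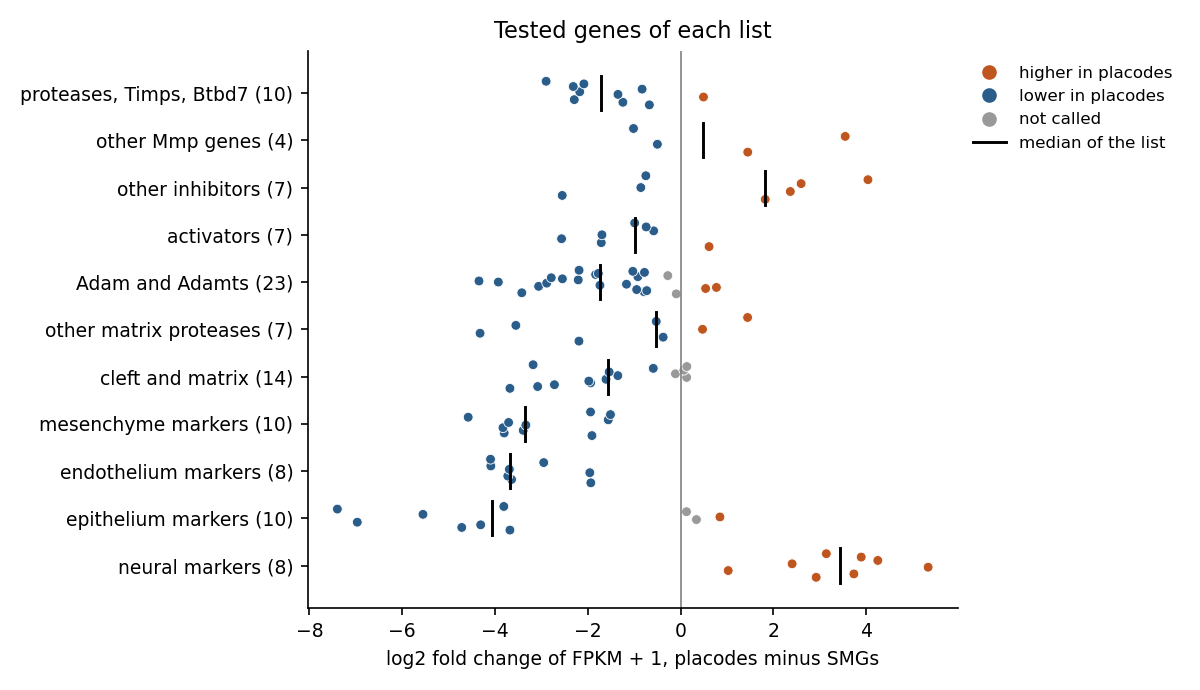
Log2 fold change of FPKM + 1 (placodes minus SMGs) of each tested gene in the 10 genes described here, in 6 further lists and in 4 marker lists, with the number tested in brackets and the list median as a black line. The medians run from -4.06 for the epithelium markers to 3.44 for the neural markers, with -1.72 for the proteases, Timp genes and Btbd7. Cdh1 is shown both in the cleft list and among the epithelium markers.

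Genes of like pattern were sought for 3 of the genes as those with the smallest Euclidean distance in log2(FPKM + 1) over the 4 samples. With 2 groups of 2 samples this likeness reflects little more than both group means. For Btbd7 they were Fam13b, Erlec1 and Zfp598, at distances of 0.0554 to 0.0878. For Mmp15 they were Mtx2, Pogk and Sccpdh, at 0.0826 to 0.0886. For Timp3 the nearest were farther off, at 0.236 to 0.240, and were Egfl7, Bgn and S100a16. Egfl7 is a gene of endothelium, and Bgn encodes the matrix proteoglycan biglycan.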

How the data were processed

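RNA-seq of 2 placode and 2 SMG samples was used, grouped by the sample titles. The deposited values are FPKM per gene and sample, which the authors made from paired-end reads aligned by HISAT2 to the genome of the mouse. GRCm38 and GRCh38 are named in the submitters' processing notes without a role. The HISAT2 version, annotation, quantifier and strandedness are not given in the sources used here. Ratios of low FPKM values between samples did not repeat (at most 1.92% of genes within 0.005 on the log2 scale of the most common ratio), so whole reads were not recovered and the depth is unknown.

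FPKM was transformed as log2(FPKM + 1), and limma 3.58.1 (R 4.3.3) was run on features whose mean reached 1 FPKM (lmFit, eBayes with trend, group as the only term, two-sided, Benjamini-Hochberg adjustment over 13193 features). The study names no test for the RNA-seq values. SDs are over 2 samples. Coordinates and exon overlaps are from GENCODE M21 (GRCm38), and promoters from RefSeq (GRCm38.p6). The fit was tested on simulated data in which far fewer genes differed than were called here. That run does not bear on whether the spread between these samples is technical. Figures were drawn with Python 3.11.15.

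The 10 genes and the lists were chosen with earlier results of these data known. Named are all 10 genes, up to 3 genes with the highest and up to 3 with the lowest log2 fold change past the threshold in each further list, and Timp4, Reck, Furin, Fn1, Snai2 and Cdh1, and 1 gene that this rule names is not reported here. Alternatives changed the pseudocount, scaling, minimum FPKM, eBayes options, replicate block and samples. Protein sequences were not used here.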

Additional observations from a re-analysis of the deposited data

How the results depend on the processing

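All 10 genes kept their direction and their adjusted p below 0.05 under each of 15 alternatives in which they were tested, and the number past the threshold stayed at 10, except at a minimum mean FPKM of 5, where Mmp9 and Timp1 were not tested and 8 genes were counted. The number at least 2-fold apart was 7, but 8 with a pseudocount of 0.1 or 0.001 and 6 at that minimum. The largest adjusted p under any alternative was 0.0242 for Mmp9 and 0.0168 for Mmp15, whose log2 fold change ranged from 0.44 to 0.55. The count of other Mmp genes past the threshold was 7 with no minimum of mean FPKM and 1 at a mean FPKM of at least 5, and that of Adam and Adamts genes was 13 at that minimum, because other numbers of genes were tested. With the replicate number as a block, 10 of the 10 genes and 10043 of all features were past the threshold, against 10049 without it. Nothing in the labels says that equal numbers mark a shared source, and replicate 1 of both groups did not deviate together (Pearson's r = -0.0348 across 13193 features). The number past the threshold over all features was 8501 to 9087 when a sample was left out, where the lone sample of a group is assumed to vary like the other group. FPKM without counts sets no interval on low values such as those of Timp1 in the placodes.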
